A study of Arabidopsis thaliana with 6 samples.

Results

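The 48 genes described here encode the light-harvesting, photosystem and electron transport subunits of Arabidopsis thaliana chloroplasts that are coded in the nucleus. They were taken by gene identifier, for their known function, from the 33602 genes of the deposited table. They comprise 18 genes of photosystem I (PSI), 24 genes of photosystem II (PSII) and 6 genes of mobile electron carriers. Of the PSI genes, 6 encode antenna proteins (LHCA) and 12 other subunits (PSA), and of the PSII genes, 14 encode antenna proteins (LHCB) and 10 other subunits (PSB). RNA came from whole seedlings of the Columbia (Col) ecotype, an inbred laboratory strain of this small crucifer, grown for 12 days on agar in cycles of 16 h light and 8 h dark at 22 °C. In the first group (Gln, 3 libraries) the only nitrogen source was 5 mM glutamine, an amino acid. In the second group (NH4NO3, 3 libraries) it was 5 mM ammonium nitrate, an inorganic salt. Both media were nitrogen-free basal salts with 0.5% sucrose, a carbon source that both groups therefore shared. No medium held glutamine together with ammonium nitrate, so a response to glutamine and a response to the lack of nitrate and ammonium cannot be told apart. The labels do not say whether the 3 libraries of a group came from separate plates or pools of seedlings, so the p-values measure the spread between these libraries, which may be technical.

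In the thylakoid membrane, antenna proteins bind chlorophyll and pass absorbed light energy to the 2 photosystems. PSII takes electrons from water, the oxygen-evolving proteins holding its manganese cluster in place, and PSI lifts the electrons on to ferredoxin, from which ferredoxin-NADP reductase (FNR) makes NADPH. Plastocyanin carries electrons between the cytochrome b6f complex and PSI. The reaction-centre proteins are made in the chloroplast, whereas the proteins considered here are made in the cytosol and imported, and their nuclear genes are known to respond to light, sugars, the clock and signals from the plastid.

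Transcript level is given as deposited in RPKM, a read number divided by gene length and by library size. The steps between low values imply 30269306 to 35421727 reads in genes per Gln library and 28654433 to 31980649 per NH4NO3 library. The 48 genes took 9.43%, 8.51% and 10.3% of these reads in Gln, against 11.5%, 12.9% and 12.6% in NH4NO3, and the groups did not overlap. Every member was well covered, the lowest read number of any member being 403, for LHCB4.3 in Gln replicate 3. NH4NO3 replicate 2 stood apart in a technical measure: 44.9% of its genes with 1 to 100 reads had an even read number, against 57.8% to 60.9% in the other 5 libraries. It was also the highest NH4NO3 library for 40 of the 48 genes, and NH4NO3 replicate 1 was the lowest for all 48. Over all genes with enough reads, NH4NO3 replicates 2 and 3 were the closest pair within a group. Their variance was 7.17 times that of counting error, against 14.5 for replicates 1 and 2 and 11.6 for replicates 1 and 3. The cause of the low share of even read numbers was not tested. Counts of members are given below with and without NH4NO3 replicate 2.

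All 48 genes were estimated lower in Gln than in NH4NO3, except that LHCA1, LHCB1.4, LHCB4.1, PSAL, PSAO, PSBO1 and PSBR turned higher and LHCB1.3 and LHCB5 came to 0 under quantile normalization, and LHCA6 and LHCB1.4 when single libraries were left out. Of the 48, 39 fell at an adjusted p under 0.05 in limma's test across all genes, 0 rose and 9 were not called. Since all estimates were below 0, 0 rose at an unadjusted p under 0.05 either. Of the alternatives, only quantile normalization called a member higher, namely LHCB1.4. Across the 19284 genes tested, 19.8% were called lower in Gln and 21.4% higher. Differences are Gln minus NH4NO3 in log2(RPKM + 1), and their median over the 48 genes was -0.42, against -0.02 over all genes tested, and 10.2% of all genes had a difference below the members' median. The members' differences ran from -0.94 for LHCB2.1 to -0.02 for LHCB1.4. In 42 of the 48 genes all 3 Gln libraries lay below all 3 NH4NO3 libraries, a pattern that 27.1% of all genes tested had in the same direction. The exceptions were LHCA6, LHCB1.3, LHCB1.4, PSAE2, PSAH1 and PETE1. The other 3 genes that were not called, LHCB4.1, PSBR and FNR2, had groups that did not overlap. Without NH4NO3 replicate 2, 22 of the 48 genes were called, without Gln replicate 2, 26, and without NH4NO3 replicate 3, 27, all of them lower in Gln. With no filter on low values 6 were called. The shares of 19.8% and 21.4% belong to the main fit, and the shares of all genes called in these other fits are not given. How far the lower counts reflect a loss of calls over all genes was therefore not tested.

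**Figure D1:**
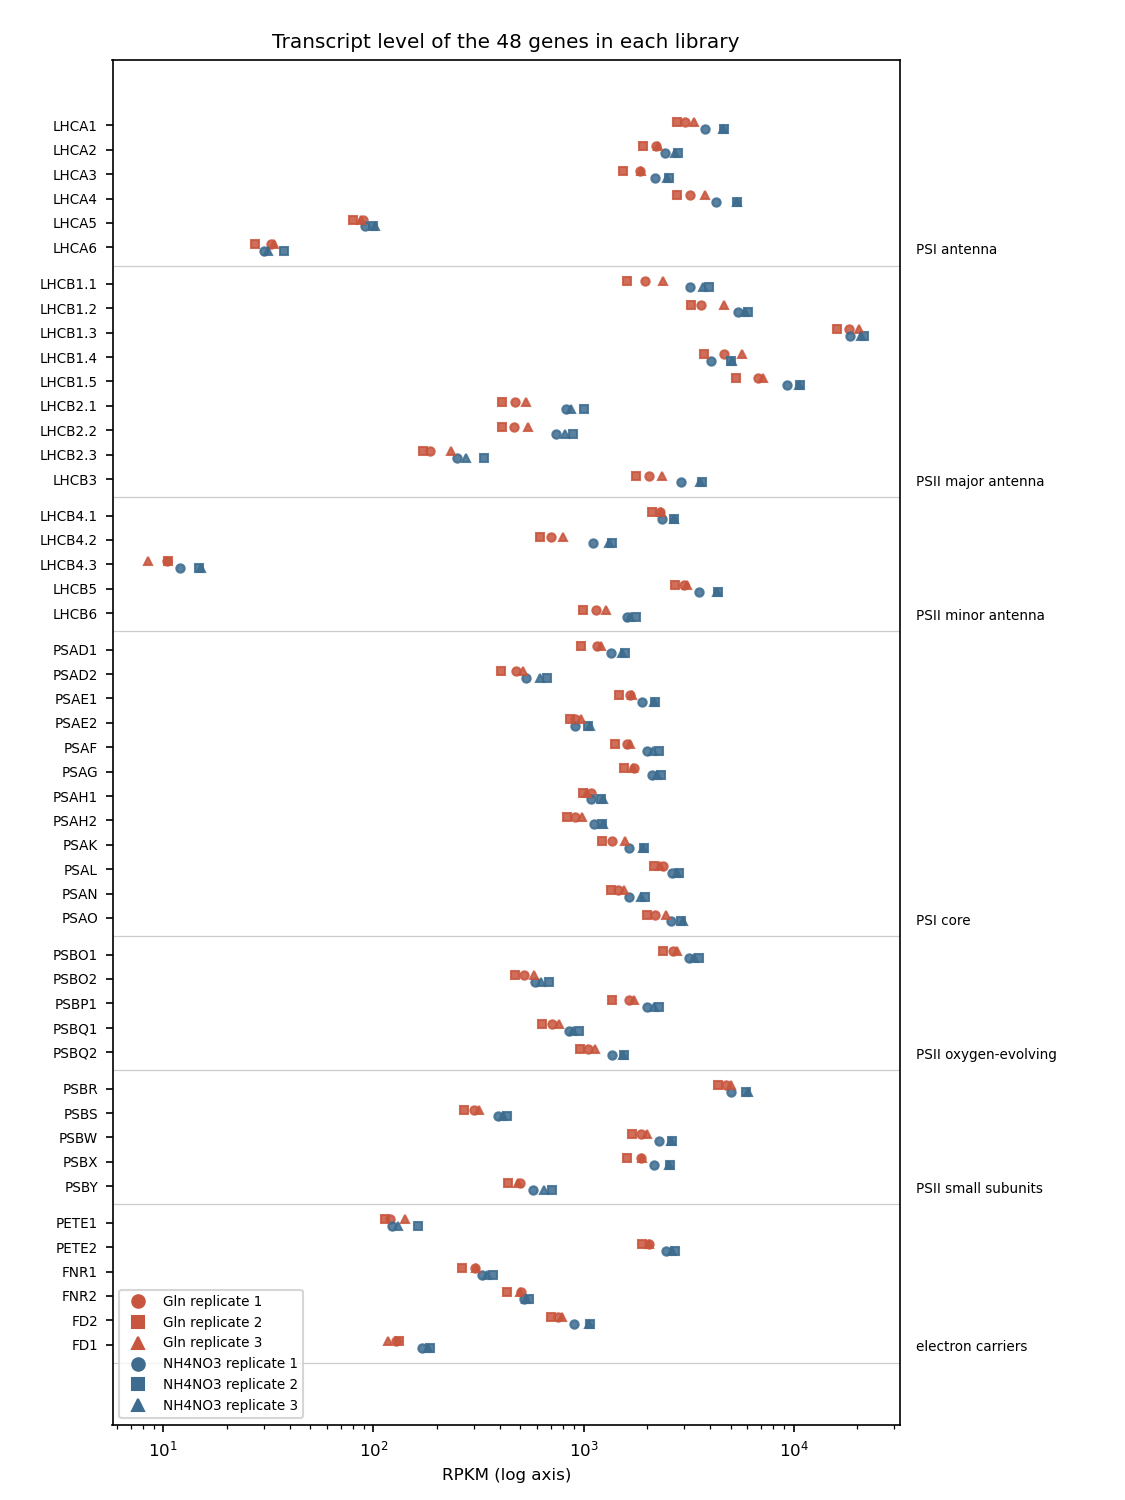
Transcript level in RPKM (log axis) of the 48 genes in each library, by subunit group, with Gln libraries in red above NH4NO3 libraries in blue and the symbol giving the replicate. The red symbols lie left of the blue ones in 42 of the 48 genes, and levels span from 8.49 RPKM for LHCB4.3 to 21632 RPKM for LHCB1.3.

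The PSII genes had the greater median difference. Of the 24 PSII genes 20 were called lower, with a median difference of -0.46, and of the 18 PSI genes 15 were called lower, with a median of -0.38. The 6 carrier genes had 4 called and a median of -0.32. Within PSII the antenna differed most: the 9 genes of its major, trimeric part had a median of -0.68 and the 5 of its minor part -0.47, against -0.36 for the 5 oxygen-evolving genes and -0.43 for the 5 small PSII subunits. In PSI, antenna and other subunits had medians of -0.39 and -0.38. Leaving out NH4NO3 replicate 2 left 15 PSII genes, 5 PSI genes and 2 carrier genes called, and leaving out Gln replicate 2 or NH4NO3 replicate 3 left 7 PSI genes called. The share of all genes called in these fits is not given, here or for the counts of subgroups and lists below. Whether PSI genes lost calls more than other genes did was not tested.

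**Figure D2:**
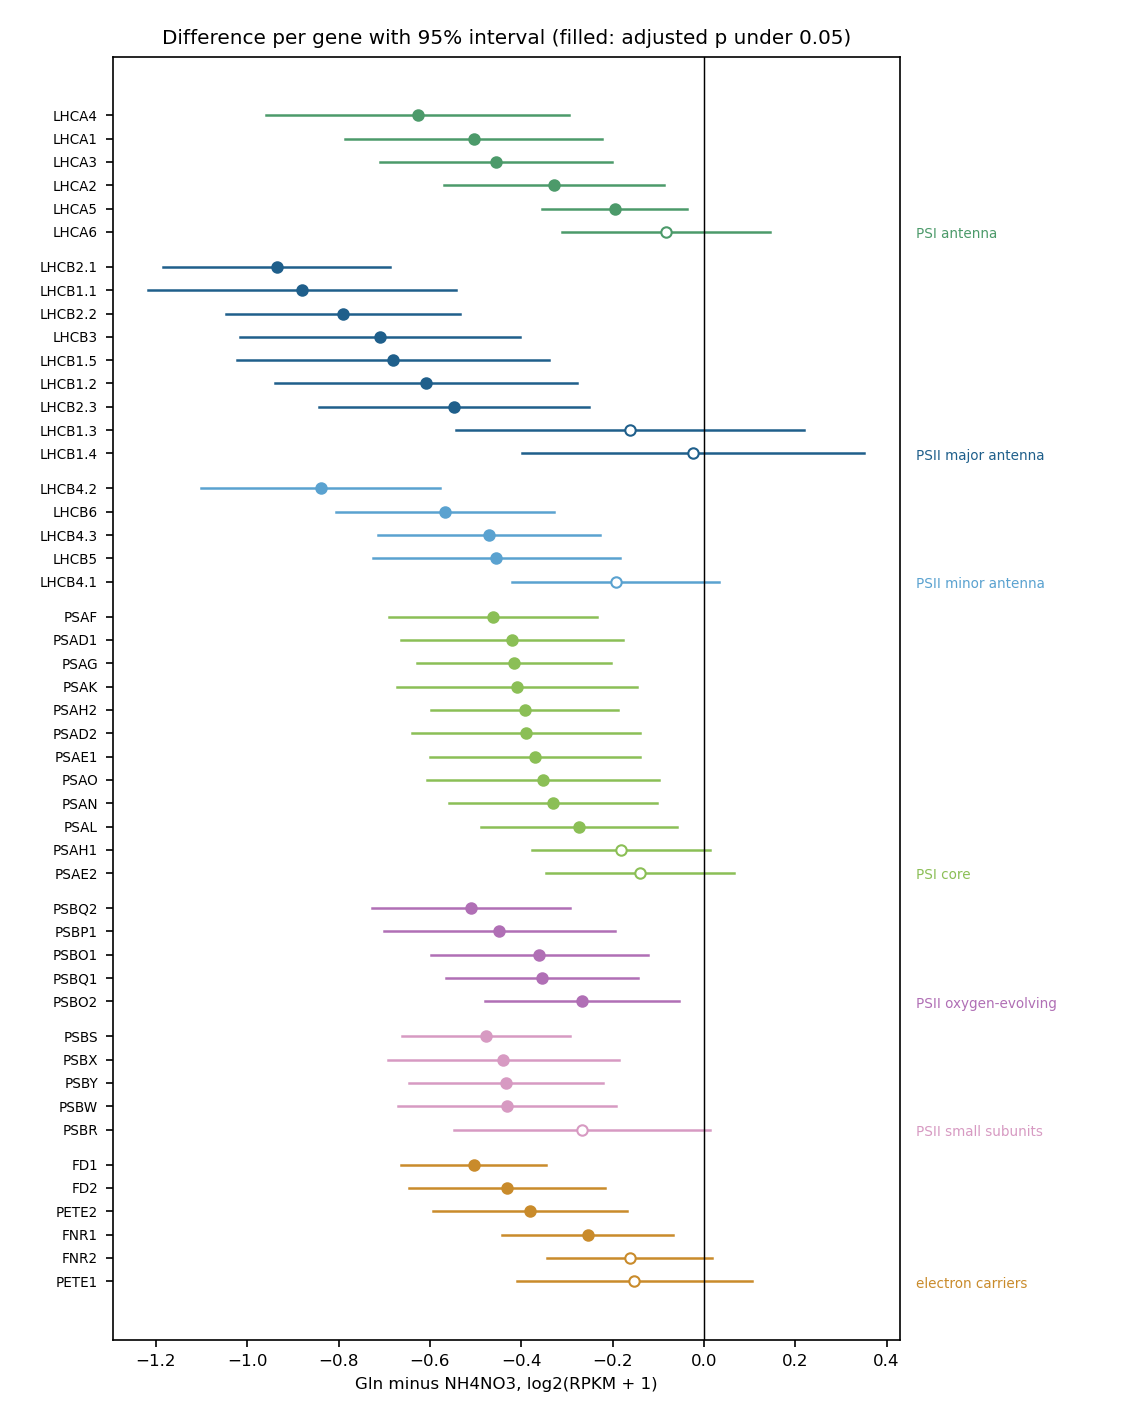
Difference in log2(RPKM + 1), Gln minus NH4NO3, of each gene with its 95% interval from limma, sorted within each subunit group, filled where the adjusted p was under 0.05. All 48 points lie left of 0, and the 5 furthest to the left are LHCB2.1, LHCB1.1, LHCB4.2, LHCB2.2 and LHCB3, all PSII antenna genes.

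The major PSII antenna is a trimer built of LHCB1, LHCB2 and LHCB3 proteins, and LHCB1 is encoded by 5 genes, whose differences ran from -0.88 to -0.02. LHCB1.1 (AT1G29920) had 1965, 1603 and 2385 RPKM in Gln replicates 1 to 3, against 3216, 3944 and 3688 RPKM in NH4NO3. Every Gln library was below every NH4NO3 library, and the difference was -0.88 ± 0.15 (SE; adjusted p = 0.00145). LHCB1.2 (AT1G29910) had 3625, 3232 and 4671 RPKM in Gln and 5451, 6055 and 5873 RPKM in NH4NO3. LHCB1.5 (AT2G34420) had 6723, 5295 and 7120.5 RPKM in Gln and 9248, 10709.9 and 10557 RPKM in NH4NO3. Their groups did not overlap either, with differences of -0.61 ± 0.15 (adjusted p = 0.00918) for LHCB1.2 and -0.68 ± 0.15 (adjusted p = 0.00603) for LHCB1.5. LHCB1.3 (AT1G29930), the member with the highest level in all 6 libraries, had 18285, 16067 and 20478 RPKM in Gln and 18512, 21632 and 20988 RPKM in NH4NO3. Gln replicate 3 lay above NH4NO3 replicate 1, and the difference of -0.16 ± 0.17 was not called (adjusted p = 0.478), its 95% interval being -0.54 to 0.22. LHCB1.4 (AT2G34430) had 4658, 3744 and 5659.6 RPKM in Gln and 4046, 5036 and 5083 RPKM in NH4NO3. The highest of these 6 values was Gln replicate 3 and the lowest Gln replicate 2, so the groups overlapped fully, with a difference of -0.02 ± 0.17 (adjusted p = 0.923) and a 95% interval of -0.40 to 0.35. Both intervals reach from a decrease to an increase.

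The make-up of the LHCB1 transcript pool differed with these responses. LHCB1.3 supplied 52.1% ± 1.45 of the summed LHCB1 RPKM in Gln and 45.6% ± 0.155 in NH4NO3 (SD, n = 3 each). The share of LHCB1.4 was 13.3% ± 0.767 in Gln and 10.5% ± 0.510 in NH4NO3. LHCB1.5 supplied 18.1% ± 0.806 in Gln and 22.8% ± 0.143 in NH4NO3, and LHCB1.1 supplied 5.61% ± 0.283 in Gln and 8.09% ± 0.208 in NH4NO3. For all 5 genes the shares did not overlap between the groups. The 5 shares add to the whole in each library, so they are not separate results, and no background was worked out for them. Summed over the 5 genes, LHCB1 had 35256, 29942 and 40314 RPKM in Gln and 40474, 47377 and 46189 RPKM in NH4NO3, and the summed difference of -0.35 ± 0.21 was not called (adjusted p = 0.207). The copies share long stretches of sequence: LHCB1.1, LHCB1.2 and LHCB1.3 are 95.7% to 96.4% identical over their coding sequences, and 10.6% to 20.5% of the 50-base words of each LHCB1 transcript also occur in another member. The deposited multi-read ratio, which the file does not define, was at most 0.00535 for any member, so how reads common to the copies were assigned is uncertain.

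LHCB1.1, LHCB1.2 and LHCB1.3 stand next to each other on chromosome 1, and their upstream sequences are shown because these genes are so alike in their coding sequence, and LHCB1.1 and LHCB1.2 were called lower while LHCB1.3 was not. Each is the 250 bases before the annotated gene start in RefSeq TAIR10.1, 5′ to 3′ on the gene's strand, at chr1:10475970-10476219, minus strand, for LHCB1.1, at chr1:10473503-10473752, minus strand, for LHCB1.2, and at chr1:10477635-10477884, plus strand, for LHCB1.3. Capitals mark matches, on either strand, to 4 motifs known from light- and clock-regulated plant promoters: the G-box CACGTG, the I-box GATAAG, the element CCAATC, and the CCA1-type site AANAATCT with A or C at the N.
LHCB1.1: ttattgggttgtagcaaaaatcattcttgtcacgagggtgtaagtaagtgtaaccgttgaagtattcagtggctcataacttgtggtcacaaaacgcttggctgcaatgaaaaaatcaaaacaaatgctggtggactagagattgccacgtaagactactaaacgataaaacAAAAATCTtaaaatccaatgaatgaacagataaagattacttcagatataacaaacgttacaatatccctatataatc
LHCB1.2: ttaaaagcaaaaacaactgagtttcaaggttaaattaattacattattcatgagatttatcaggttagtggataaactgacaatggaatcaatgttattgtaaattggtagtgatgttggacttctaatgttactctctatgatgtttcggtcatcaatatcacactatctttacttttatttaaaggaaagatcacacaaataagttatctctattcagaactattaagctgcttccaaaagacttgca
LHCB1.3: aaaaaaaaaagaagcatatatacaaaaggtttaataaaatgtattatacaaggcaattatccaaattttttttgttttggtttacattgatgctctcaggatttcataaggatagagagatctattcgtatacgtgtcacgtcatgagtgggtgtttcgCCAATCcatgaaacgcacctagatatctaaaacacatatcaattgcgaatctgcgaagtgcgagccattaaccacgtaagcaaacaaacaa
The window of LHCB1.1 holds a CCA1-type site that starts at position -78 from the gene start, that of LHCB1.3 a CCAATC element at -91, and that of LHCB1.2 none of the 4 motifs. Aligned pairwise, these 3 windows are 51.9% to 56.6% identical. LHCB1.4 and LHCB1.5 form a second, head-to-head pair on chromosome 2. The window of LHCB1.4 holds a CCA1-type site and that of LHCB1.5 a CCAATC element. Each of these motifs thus occurs in the window of a gene that was called and in that of a gene that was not. LHCB1.5 had a mean of 8276 RPKM, against 5.47 RPKM for a gene on the other strand that overlaps it by 99 bases. A non-coding RNA gene on the other strand spans its whole length, and the level of that gene was not analysed here.

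LHCB2 proteins are the antenna proteins whose phosphorylation is known to move light-harvesting complexes between the photosystems. LHCB2.1 (AT2G05100) had 470.0, 410.4 and 531 RPKM in Gln and 826, 1002 and 869 RPKM in NH4NO3, a difference of -0.94 ± 0.11 (adjusted p = 0.000163) that was the greatest decrease of any member. LHCB2.2 (AT2G05070) had 467, 407 and 544 RPKM in Gln and 735, 889 and 819.6 RPKM in NH4NO3 (-0.79 ± 0.11, adjusted p = 0.000551). Both were called in all 13 alternative fits of single genes. LHCB2.3 (AT3G27690) had 185, 172 and 234 RPKM in Gln and 250.2, 336 and 277 RPKM in NH4NO3, with no overlap (-0.55 ± 0.13, adjusted p = 0.00889). Summed to guard against reads shared between the copies, LHCB2 had 1122, 989 and 1309 RPKM in Gln and 1812, 2227 and 1965 RPKM in NH4NO3, a difference of -0.82 ± 0.12 (adjusted p = 0.000673). LHCB3 (AT5G54270), the third protein of the trimer, had 2058, 1778 and 2369 RPKM in Gln and 2899, 3641 and 3589 RPKM in NH4NO3 (-0.71 ± 0.14, adjusted p = 0.00280). Among the trimer genes, then, LHCB1.3 and LHCB1.4 had overlapping groups and the other 7 were called lower.

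The minor PSII antenna proteins CP29, CP26 and CP24 link the trimers to the PSII core. CP29 is encoded by LHCB4.1, LHCB4.2 and LHCB4.3. LHCB4.1 (AT5G01530), which had the highest level of the 3, gave 2315, 2109 and 2335 RPKM in Gln and 2367, 2683 and 2681 RPKM in NH4NO3. The groups did not overlap but were only 31.6 RPKM apart, and the difference of -0.19 ± 0.10 was not called (adjusted p = 0.156). LHCB4.2 (AT3G08940) had 703, 621 and 797 RPKM in Gln and 1104, 1369.7 and 1319.6 RPKM in NH4NO3, wide apart, with a difference of -0.84 ± 0.12 (adjusted p = 0.000429). LHCB4.2 was called in all 13 alternative fits and LHCB4.1 in none. LHCB4.1 made up 76.2% ± 1.43 of the summed RPKM of these 2 genes in Gln and 67.1% ± 1.00 in NH4NO3 (SD, n = 3 each). The log2 ratio of LHCB4.1 to LHCB4.2 was 1.72, 1.76 and 1.55 in Gln and 1.1, 0.97 and 1.02 in NH4NO3. That shift of 0.65 was the greatest of 11 pairs of genes for related proteins (exact 2-sided permutation p = 0.10, the smallest that 3 against 3 libraries allow; Benjamini-Hochberg adjusted over the 11 pairs 0.138). LHCB4.3 (AT2G40100), also called LHCB8 and the member with the lowest level, had 10.4, 10.5 and 8.49 RPKM in Gln and 12.1, 14.7 and 15.1 RPKM in NH4NO3 (-0.47 ± 0.11, adjusted p = 0.00709).

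**Figure D3:**
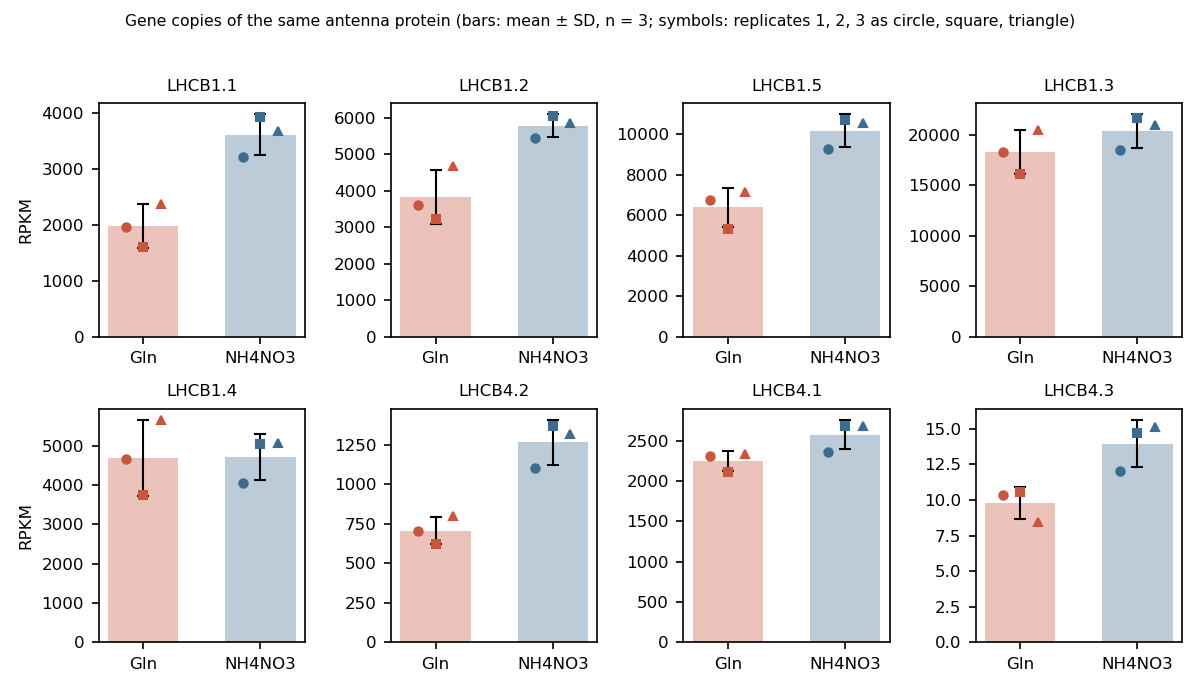
RPKM of the 5 LHCB1 and 3 LHCB4 genes in the 3 Gln and 3 NH4NO3 libraries, as mean ± SD bars with each replicate as a symbol (each panel has its own axis from 0). The groups overlap for LHCB1.3 and LHCB1.4, lie close for LHCB4.1 and are apart for the other 5 genes.

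The coding sequences of LHCB4.1 and LHCB4.2 are 81.7% identical and share no 50-base word. Their upstream windows, shown since the 2 genes encode the same subunit and their ratio shifted most of the 11 pairs, which hold no LHCB1 genes, are those at chr5:208616-208865, plus strand, and at chr3:2717307-2717556, plus strand, with the same 4 motifs in capitals.
LHCB4.1: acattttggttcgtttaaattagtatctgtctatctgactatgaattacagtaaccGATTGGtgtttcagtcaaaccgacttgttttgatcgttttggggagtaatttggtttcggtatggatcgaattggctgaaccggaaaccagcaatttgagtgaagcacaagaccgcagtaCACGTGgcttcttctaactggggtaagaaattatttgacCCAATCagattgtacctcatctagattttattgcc
LHCB4.2: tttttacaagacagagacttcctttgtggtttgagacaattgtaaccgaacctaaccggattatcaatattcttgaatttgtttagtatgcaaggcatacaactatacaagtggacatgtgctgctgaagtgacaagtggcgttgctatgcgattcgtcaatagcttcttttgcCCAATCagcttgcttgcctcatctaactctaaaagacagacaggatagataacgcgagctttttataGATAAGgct
The LHCB4.1 window holds a G-box at -74 and CCAATC elements at -194 and -35, the first of them on the other strand and therefore printed as its complement. The LHCB4.2 window holds a CCAATC element at -76 and an I-box at -9, and the 2 windows are 51.7% identical. Over all 48 members, 8 windows (16.7%) held a G-box, against 6.49% of the 27443 windows of all genes. An I-box was in 11 (22.9%) against 12.3%, a CCAATC element in 12 (25%) against 10.2%, and a CCA1-type site in 6 (12.5%) against 8.38%. CCAATC elements were in 8 of 24 PSII windows and 3 of 18 PSI windows, and I-boxes in 4 PSII and 5 PSI windows. A match describes these letters in this window and is not evidence of a bound site.

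CP26, encoded by LHCB5 (AT4G10340), had 3007, 2736 and 3118 RPKM in Gln and 3533, 4341 and 4305 RPKM in NH4NO3 (-0.45 ± 0.12, adjusted p = 0.0138). CP24, encoded by LHCB6 (AT1G15820), had 1140.3, 994 and 1279 RPKM in Gln and 1603, 1767 and 1665 RPKM in NH4NO3 (-0.57 ± 0.11, adjusted p = 0.00247). Neither gene's groups overlapped. Without NH4NO3 replicate 2 LHCB6 kept its call (adjusted p = 0.0132), and LHCB5 lost it (adjusted p = 0.0666).

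Of the PSII subunits outside the antenna, the oxygen-evolving proteins are extrinsic proteins on the lumen side. PSBO is the manganese-stabilising protein. Its main gene PSBO1 (AT5G66570) had 2670.1, 2394 and 2794 RPKM in Gln and 3173, 3543 and 3359 RPKM in NH4NO3 (-0.36 ± 0.11, adjusted p = 0.0226). PSBO2 (AT3G50820), with lower levels, had 523, 472 and 581 RPKM in Gln and 589.5, 681 and 624 RPKM in NH4NO3 (-0.27 ± 0.09, adjusted p = 0.0469). In both, the groups were apart, for PSBO2 by 8.68 RPKM. PSBP1 (AT1G06680) had 1648, 1363 and 1743 RPKM in Gln and 2013, 2278 and 2168 RPKM in NH4NO3 (-0.45 ± 0.11, adjusted p = 0.0111). PSBQ1 (AT4G21280) had 711, 631 and 768 RPKM in Gln and 849, 953 and 891 RPKM in NH4NO3 (-0.35 ± 0.09, adjusted p = 0.0134). PSBQ2 (AT4G05180) had 1055, 959 and 1129.6 RPKM in Gln and 1368, 1563 and 1543 RPKM in NH4NO3 (-0.51 ± 0.10, adjusted p = 0.00258). PSBP and PSBQ hold calcium and chloride at the oxygen-evolving site. All 5 of these genes were called lower with all 6 libraries, 2 of the 5 without NH4NO3 replicate 2 or Gln replicate 2, and 3 without NH4NO3 replicate 3.

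Among the small and regulatory PSII subunits, PSBS is the protein that senses lumen acidity and switches on the dissipation of excess light energy as heat. PSBS (AT1G44575) had 299, 269 and 319 RPKM in Gln and 389.6, 432 and 413 RPKM in NH4NO3, with a gap of 70.2 RPKM between the groups (-0.48 ± 0.08, adjusted p = 0.00152). It was called in all 13 alternative fits. PSBY (AT1G67740), a small membrane protein near cytochrome b559, was called in all of them too. It had 498, 437 and 489 RPKM in Gln and 575, 708 and 645 RPKM in NH4NO3 (-0.43 ± 0.09, adjusted p = 0.00534). The small membrane subunits PSBW and PSBX had similar levels and differences. PSBW (AT2G30570) had 1879, 1695 and 2005 RPKM in Gln and 2285, 2628 and 2607 RPKM in NH4NO3 (-0.43 ± 0.11, adjusted p = 0.00983). PSBX (AT2G06520) had 1872, 1601 and 1886 RPKM in Gln and 2153, 2576 and 2539 RPKM in NH4NO3 (-0.44 ± 0.11, adjusted p = 0.0117). PSBR (AT1G79040), which helps to assemble the oxygen-evolving proteins and had the third highest level of all members, gave 4738, 4354 and 5020.3 RPKM in Gln and 5044, 5899.5 and 6061 RPKM in NH4NO3. Its Gln replicate 3 lay just under its NH4NO3 replicate 1, and the difference of -0.27 ± 0.13 was not called (adjusted p = 0.116).

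In the PSI antenna, LHCA1 to LHCA4 form the belt of light-harvesting proteins on one side of PSI, and LHCA4 binds the chlorophylls that absorb at the longest wavelengths. LHCA4 (AT3G47470) had 3197, 2772 and 3789 RPKM in Gln and 4286, 5394 and 5346 RPKM in NH4NO3, a difference of -0.63 ± 0.15 (adjusted p = 0.00799) that was the greatest of any PSI gene. LHCA1 (AT3G54890), its partner in the belt, had 3043, 2793 and 3363 RPKM in Gln and 3799.6, 4675 and 4593 RPKM in NH4NO3 (-0.50 ± 0.13, adjusted p = 0.0104). LHCA2 and LHCA3 are the other partners of the belt. LHCA3 (AT1G61520) had 1851, 1543 and 1884 RPKM in Gln and 2184, 2558 and 2487 RPKM in NH4NO3 (-0.46 ± 0.11, adjusted p = 0.0102). LHCA2 (AT3G61470) had 2212, 1923 and 2247 RPKM in Gln and 2448, 2827 and 2735 RPKM in NH4NO3 (-0.33 ± 0.11, adjusted p = 0.0344). All 4 belt genes had groups that did not overlap. LHCA5 and LHCA6 are scarce proteins that join PSI to the NDH complex of cyclic electron flow. LHCA5 (AT1G45474) had 88.8, 80.0 and 86.9 RPKM in Gln and 91.5, 99.7 and 102 RPKM in NH4NO3 (-0.20 ± 0.07, adjusted p = 0.0492). LHCA6 (AT1G19150) had 32.5, 27.2 and 33.7 RPKM in Gln and 30.3, 37.4 and 31.5 RPKM in NH4NO3. Its groups overlapped, and the difference of -0.08 ± 0.10 was not called (adjusted p = 0.547). The log2 ratio of LHCA2 to LHCA6 was 6.05, 6.09 and 6.02 in Gln and 6.29, 6.20 and 6.40 in NH4NO3, with no overlap, a shift whose direction turned under quantile normalization. Without NH4NO3 replicate 2, LHCA3 and LHCA4 were called and the other 4 LHCA genes were not, and without Gln replicate 2 or NH4NO3 replicate 3, 3 of the 6 were called.

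The differences of the 12 genes for other PSI subunits ran from -0.46 to -0.14, against -0.94 to -0.02 for the 9 major PSII antenna genes. PSAF, which with PSAN docks plastocyanin, had the greatest difference. PSAF (AT1G31330) had 1600.2, 1409.5 and 1662 RPKM in Gln and 2008, 2295 and 2129 RPKM in NH4NO3 (-0.46 ± 0.10, adjusted p = 0.00553). PSAN (AT5G64040) had 1459, 1346 and 1556 RPKM in Gln and 1653, 1956 and 1882 RPKM in NH4NO3 (-0.33 ± 0.10, adjusted p = 0.0266). On the stromal side, PSAD and PSAE form the docking site of ferredoxin, and each is encoded by a pair of genes. PSAD1 (AT4G02770) had 1160.5, 969 and 1212 RPKM in Gln and 1357, 1575 and 1529 RPKM in NH4NO3 (-0.42 ± 0.11, adjusted p = 0.0123). PSAD2 (AT1G03130) had 475, 403 and 513 RPKM in Gln and 533, 667 and 622 RPKM in NH4NO3 (-0.39 ± 0.11, adjusted p = 0.0197). The PSAD genes therefore had like differences, and their log2 ratio overlapped between the groups. The PSAE genes had unlike differences. PSAE1 (AT4G28750) had 1659.6, 1476 and 1696 RPKM in Gln and 1889, 2196 and 2165 RPKM in NH4NO3 (-0.37 ± 0.10, adjusted p = 0.0169). PSAE2 (AT2G20260) had 914, 861 and 971 RPKM in Gln and 913, 1047 and 1068 RPKM in NH4NO3, overlapping (-0.14 ± 0.09, adjusted p = 0.252). The log2 ratio of PSAE1 to PSAE2 was 0.86, 0.78 and 0.80 in Gln and 1.05, 1.07 and 1.02 in NH4NO3, with no overlap.

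PSAH, PSAL and PSAO lie where mobile light-harvesting complexes attach to PSI. PSAH1 (AT3G16140) had 1087, 995 and 1033 RPKM in Gln and 1086, 1215 and 1234 RPKM in NH4NO3. Gln replicate 1 lay just above NH4NO3 replicate 1, and the difference of -0.18 ± 0.09 was not called (adjusted p = 0.123). PSAH2 (AT1G52230) had 914, 835 and 984 RPKM in Gln and 1118, 1227 and 1239 RPKM in NH4NO3, apart from each other (-0.39 ± 0.09, adjusted p = 0.00747). The log2 ratio of PSAH1 to PSAH2 was 0.25, 0.25 and 0.07 in Gln and -0.04, -0.01 and -0.01 in NH4NO3, so PSAH1 exceeded PSAH2 in all 3 Gln libraries and in none of the 3 NH4NO3 libraries. PSAL (AT4G12800) had 2379.8, 2152 and 2301 RPKM in Gln and 2636, 2843 and 2774 RPKM in NH4NO3 (-0.27 ± 0.10, adjusted p = 0.0448). PSAO (AT1G08380) had 2197, 1999 and 2475 RPKM in Gln and 2597, 2919 and 2986 RPKM in NH4NO3 (-0.35 ± 0.11, adjusted p = 0.0322). PSAG and PSAK, related membrane proteins at the edge of PSI that hold its antenna, had like differences. PSAG (AT1G55670) had 1743, 1550.3 and 1725 RPKM in Gln and 2121, 2341 and 2229 RPKM in NH4NO3 (-0.42 ± 0.09, adjusted p = 0.00666). PSAK (AT1G30380) had 1359, 1224 and 1579.8 RPKM in Gln and 1646, 1945 and 1922 RPKM in NH4NO3 (-0.41 ± 0.12, adjusted p = 0.0198). With NH4NO3 replicate 2 left out, 3 of the 12 genes, PSAF, PSAG and PSAH2, were called. Without Gln replicate 1 the count was 6, and without Gln replicate 2 or NH4NO3 replicate 3 it was 4.

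Set side by side within each library, the mean of the PSI genes stood higher against that of the PSII genes in Gln than in NH4NO3. The mean log2(RPKM + 1) of the PSI genes minus that of the PSII genes was -0.19, -0.18 and -0.24 in Gln and -0.34, -0.36 and -0.34 in NH4NO3, a shift of 0.14 with no overlap. Between the antennae alone it was -0.83, -0.84 and -0.91 in Gln and -1.05, -1.06 and -1.05 in NH4NO3, a shift of 0.20. Between the other subunits the shift was 0.05, from values of 0.17, 0.18 and 0.16 in Gln and 0.12, 0.11 and 0.14 in NH4NO3. There PSI lay above PSII in both groups, and further above it in Gln. The groups did not overlap in any of these 3 measures, and the antennae shifted more than the other subunits. Within PSII, antenna minus other subunits was 0.11, 0.09 and 0.19 in Gln and 0.25, 0.31 and 0.31 in NH4NO3. Within PSI the same measure overlapped, at -0.89, -0.93 and -0.88 in Gln and -0.91, -0.86 and -0.88 in NH4NO3. These means weight every gene alike, and no test was made on them. The median differences of the other subunits did not split by photosystem. They were -0.38 in PSI, -0.36 for oxygen-evolving genes and -0.43 for small PSII subunits. Summed RPKM, which weights a gene by its level, gave another picture: the PSI to PSII ratio was 0.445, 0.457 and 0.426 in Gln and 0.448, 0.447 and 0.449 in NH4NO3, overlapping. The summed ratio of antenna to other subunits overlapped within PSII, at 2.87, 2.76 and 3.08 in Gln and 2.92, 2.98 and 2.96 in NH4NO3. Within PSI it did not, at 0.615, 0.60 and 0.644 in Gln and 0.657, 0.701 and 0.702 in NH4NO3. Which photosystem's antenna moved apart from its other subunits thus depended on the weighting. LHCB1.3, which was not called, supplied much of the PSII sum. With the LHCB1 and the LHCB2 genes each summed to 1 feature before the mean was taken, the PSI minus PSII shift was 0.11.

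**Figure D4:**
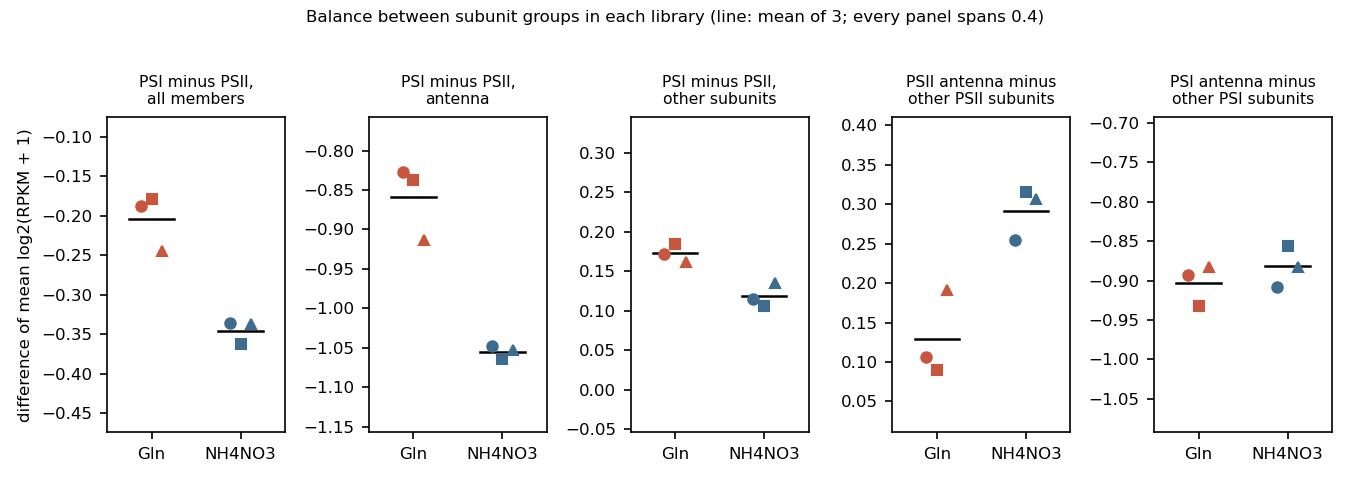
Mean log2(RPKM + 1) of a subunit group minus that of another in each library, with Gln left of NH4NO3, a line at the mean of 3 libraries and the same span of 0.4 in every panel. Gln lies above NH4NO3 in the 3 panels of PSI minus PSII and below it in PSII antenna minus other PSII subunits, and the groups overlap in the panel of PSI antenna minus other PSI subunits.

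The mobile carriers had the smaller median difference given above. Plastocyanin is encoded by PETE1 and PETE2. PETE2 (AT1G20340), the gene with the higher level, had 2054, 1895 and 2051 RPKM in Gln and 2455, 2716 and 2644 RPKM in NH4NO3 (-0.38 ± 0.10, adjusted p = 0.0105). PETE1 (AT1G76100) had 120.0, 113 and 141 RPKM in Gln and 123, 163 and 131 RPKM in NH4NO3, overlapping (-0.15 ± 0.11, adjusted p = 0.313). Ferredoxin passes electrons from PSI to FNR and to nitrite reductase and glutamate synthase, enzymes of nitrogen assimilation. FD2 (AT1G60950), the main leaf ferredoxin, had 752, 702 and 789 RPKM in Gln and 895, 1074 and 1062 RPKM in NH4NO3 (-0.43 ± 0.10, adjusted p = 0.00574). FD1 (AT1G10960), the minor leaf ferredoxin, had 128, 133 and 117 RPKM in Gln and 169.9, 185 and 182 RPKM in NH4NO3 (-0.50 ± 0.07, adjusted p = 0.000472). FD1 was called in all 13 alternative fits. It overlaps a neighbouring gene on the same strand by 78 bases, and its mean RPKM was 3.18 times that gene's. Of the leaf FNR genes, FNR1 (AT5G66190) had 304, 263 and 308 RPKM in Gln and 328, 369 and 346 RPKM in NH4NO3 (-0.25 ± 0.08, adjusted p = 0.0351). FNR2 (AT1G20020) had 503, 434 and 499 RPKM in Gln and 522, 549.6 and 533 RPKM in NH4NO3, apart by 19.1 RPKM and not called (-0.16 ± 0.08, adjusted p = 0.133). Of the 11 gene pairs compared, 8 had log2 ratios without overlap between the groups, and PSAD1 to PSAD2, PETE1 to PETE2 and FD1 to FD2 overlapped. No such share was worked out for other pairs of genes, so the count of 8 has no background beside it. None of the 11 can reach an exact p below 0.10 in this design.

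The members varied together from library to library within a group. NH4NO3 replicate 1 had the lowest value of its group for all 48 genes, and Gln replicate 2 the lowest of its group for 46, while Gln replicate 3 had the highest for 39. Relative to the NH4NO3 mean, the mean log2(RPKM + 1) of the 48 genes stood at -0.39, -0.56 and -0.30 in Gln replicates 1 to 3 and at -0.13, 0.09 and 0.04 in NH4NO3 replicates 1 to 3. The major PSII antenna spread most within Gln, at -0.60, -0.82 and -0.36. A member's level in NH4NO3 and its difference had a Pearson correlation of -0.17 and a Spearman correlation of -0.13 across the 48 genes, which share these libraries and are not independent. The kit did not mark strand, so reads of overlapping genes on opposite strands cannot be told apart. This concerns 17 of the 48 members. In 16 of them an overlapping gene on the other strand has a value in the table, and the member's mean RPKM was at least 21.5 times that gene's. For 4 further overlapping genes, at LHCB1.5, LHCB6, PSAE1 and PSAG, no level was analysed here.

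Genes that work with the photosystems were read from lists of genes. Of 11 nuclear genes of the cytochrome b6f complex, the chloroplast ATP synthase and cyclic flow, 7 were called lower, 0 higher, with a median of -0.34. PETC, the Rieske iron-sulfur protein of cytochrome b6f, had 781, 708 and 802 RPKM in Gln and 884, 1010.4 and 1012 RPKM in NH4NO3 (-0.34 ± 0.09, adjusted p = 0.0131). The ATP synthase genes ATPD (-0.40) and ATPG (-0.39) and TIC62 (-0.41), which anchors FNR at the thylakoid, were the 3 with the greatest differences. Of 13 nuclear subunit genes of the NDH complex 10 were called lower (median -0.30), led by NDHM (-0.64), NDHS (-0.57) and NDHN (-0.52). Of 19 factors that assemble the photosystems or insert antenna proteins 15 were called lower (median -0.28). They were led by LPA3 (-0.44), a PSII assembly factor, and by CPSRP43 (-0.43) and ALB3 (-0.42), which bring antenna proteins to the membrane and insert them. Without Gln replicate 2 the count was 8, and without NH4NO3 replicate 2 it was 9. In these 3 lists limma called 0 genes higher with all 6 libraries, against 21.4% of all genes tested, and 0 were higher at an unadjusted p under 0.05.

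Relatives of the members did not all go the same way. Of 8 light-harvesting-like genes 3 were called lower, namely LIL3:1 (-0.40), LHCB7 (-0.38) and LIL3:2 (-0.22), and 0 higher (1, ELIP1, at an unadjusted p under 0.05), with 5 called lower and 1 higher without Gln replicate 3. The early light-induced genes ELIP1 and ELIP2 were at 0.592 to 2.39 RPKM in every library and were not called, with adjusted p of 0.0656 and 0.167. Among 8 other tested PSBP, ferredoxin, FNR and cytochrome c6A genes, 5 were called lower and 1 higher. The gene that rose was FD3, the ferredoxin of roots and other non-green tissue, at 97.2, 104 and 116 RPKM in Gln and 87.3, 83.2 and 85.6 RPKM in NH4NO3 (0.30 ± 0.08, adjusted p = 0.0103). RFNR1, a FNR of non-green plastids, went the other way, at 19.9, 18.9 and 18.8 RPKM in Gln and 28.8, 24.7 and 28.4 RPKM in NH4NO3 (-0.48 ± 0.08, adjusted p = 0.000867). FDC1 (-0.61), a ferredoxin-like protein, and PSBTN (-0.41), a small PSII subunit, were also called lower. The list's other FNR gene of non-green plastids, besides RFNR1, overlapped between the groups and was not called (-0.11 ± 0.08, adjusted p = 0.277).

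Of 16 regulators of photosynthesis genes 10 were called lower and 1 higher, with a median of -0.35. The transcription factors GLK1 and GLK2, which activate antenna and chlorophyll synthesis genes, had unlike differences. GLK2 had 11.1, 14.4 and 9.92 RPKM in Gln and 21.7, 30.0 and 25.7 RPKM in NH4NO3 (-1.07 ± 0.14, adjusted p = 0.000306). GLK1 had 18.1, 14.7 and 14.1 RPKM in Gln and 14.8, 18.8 and 16.8 RPKM in NH4NO3, overlapping (-0.10 ± 0.11, adjusted p = 0.501). The groups were wide apart for GLK2 and mixed for GLK1. The GATA factor GNC, known to respond to nitrate and to promote greening, had 2.09, 3.15 and 1.92 RPKM in Gln and 4.85, 6.89 and 5.13 RPKM in NH4NO3 (-0.97 ± 0.16, adjusted p = 0.00111). SIG5, a sigma factor that directs the plastid RNA polymerase to the psbD gene, had 1.86, 1.97 and 1.83 RPKM in Gln and 4.13, 4.2 and 3.78 RPKM in NH4NO3 (-0.80 ± 0.10, adjusted p = 0.000184). HY5, a light-signalling factor, was the regulator that rose, at 10.4, 12.6 and 11.5 RPKM in Gln and 9.33, 8.77 and 8.84 RPKM in NH4NO3 (0.32 ± 0.09, adjusted p = 0.0144). HY5 was not called without Gln replicate 2 or without NH4NO3 replicate 2. GUN1, a plastid signalling protein (-0.09, adjusted p = 0.365), and STN7, the kinase of LHCII (-0.23, adjusted p = 0.0675), overlapped between the groups.

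LHCB transcripts are known to follow the circadian clock. Of 9 clock genes tested 3 were called lower (PRR7 -0.57, ELF3 -0.40, PRR5 -0.24) and 1 higher (ELF4 0.64), with a median of -0.12. CCA1, a morning factor that binds LHCB promoters, had 2.19, 3.03 and 2.43 RPKM in Gln and 3.12, 3.14 and 2.32 RPKM in NH4NO3, overlapping (-0.12 ± 0.13, adjusted p = 0.493). The evening gene TOC1 had 42.7, 46.2 and 42.3 RPKM in Gln and 43.4, 39.5 and 37.4 RPKM in NH4NO3, also overlapping (0.12 ± 0.07, adjusted p = 0.207). The morning factor LHY, at 0.474 to 1.01 RPKM, was below the filter on low values. The hour of harvest is not given, and its part in the members' differences was not tested.

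Lists of other chloroplast functions had similar medians. Of 19 Rubisco and Calvin cycle genes 15 were called lower and 0 higher (0 also at an unadjusted p under 0.05), with a median of -0.39. RBCS1A, the Rubisco small subunit gene with the highest level, had 8988, 7931 and 8964 RPKM in Gln and 9213, 10361 and 10032 RPKM in NH4NO3, without overlap but not called (-0.19 ± 0.13, adjusted p = 0.271). RCA, Rubisco activase, had 1607, 1330.3 and 1428 RPKM in Gln and 2029, 2386 and 2210.5 RPKM in NH4NO3 (-0.60 ± 0.11, adjusted p = 0.00174). RBCS2B (-0.78) and RBCS1B (-0.54) were also among the leading 3, RBCS1B with a deposited multi-read ratio of 0.263 that makes its value uncertain. Of 15 chlorophyll synthesis genes 10 were called lower and 0 higher (1, PORA, at an unadjusted p under 0.05), with a median of -0.37. They were led by GUN4 (-0.84), an activator of magnesium chelatase, CAO (-0.76), which makes the chlorophyll b that antenna proteins bind, and CHLH (-0.61), a magnesium chelatase subunit. The members' median of -0.42 thus lay beside -0.39 and -0.37 in these lists.

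Whole seedlings hold shoot and root, and markers of both were expressed. Of 15 tested markers of shoot epidermis, stomata and leaf polarity 13 were called lower and 0 higher (0 also at an unadjusted p under 0.05), with a median of -0.56. The summed level of all 16 markers on that list was 208 to 229 RPKM in Gln and 299.9 to 327 RPKM in NH4NO3. The stomatal lineage gene SPCH had 1.07, 1.71 and 1.44 RPKM in Gln and 4.51, 3.95 and 3.84 RPKM in NH4NO3 (-1.09 ± 0.13), and KAT1 (-0.86) and MYB60 (-0.67), both active in guard cells, came next. All 7 root hair markers were called higher, with a median of 1.15 and a summed level of 69.2 to 88.7 RPKM in Gln and 29.5 to 32.1 RPKM in NH4NO3. They were led by PRP3 (1.43), EXPA7 (1.36) and EXPA18 (1.21), cell wall genes of growing hairs. The list of other root markers held 16, of which 11 passed the filter on low values. Of these 11, 4 were called higher, among them CASP4 (0.58), PHO1 (0.56) and MYB36 (0.52), and 1 lower, TIP2;3 (-0.76). Without NH4NO3 replicate 3, 2 were called higher. The summed level of all 16 other root markers, 124 to 176 RPKM in Gln and 124 to 140.2 RPKM in NH4NO3, overlapped. In RNA of whole seedlings, fewer green cells and less photosynthesis RNA per green cell cannot be told apart, and the part of these markers in the members' differences was not tested.

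**Figure D5:**
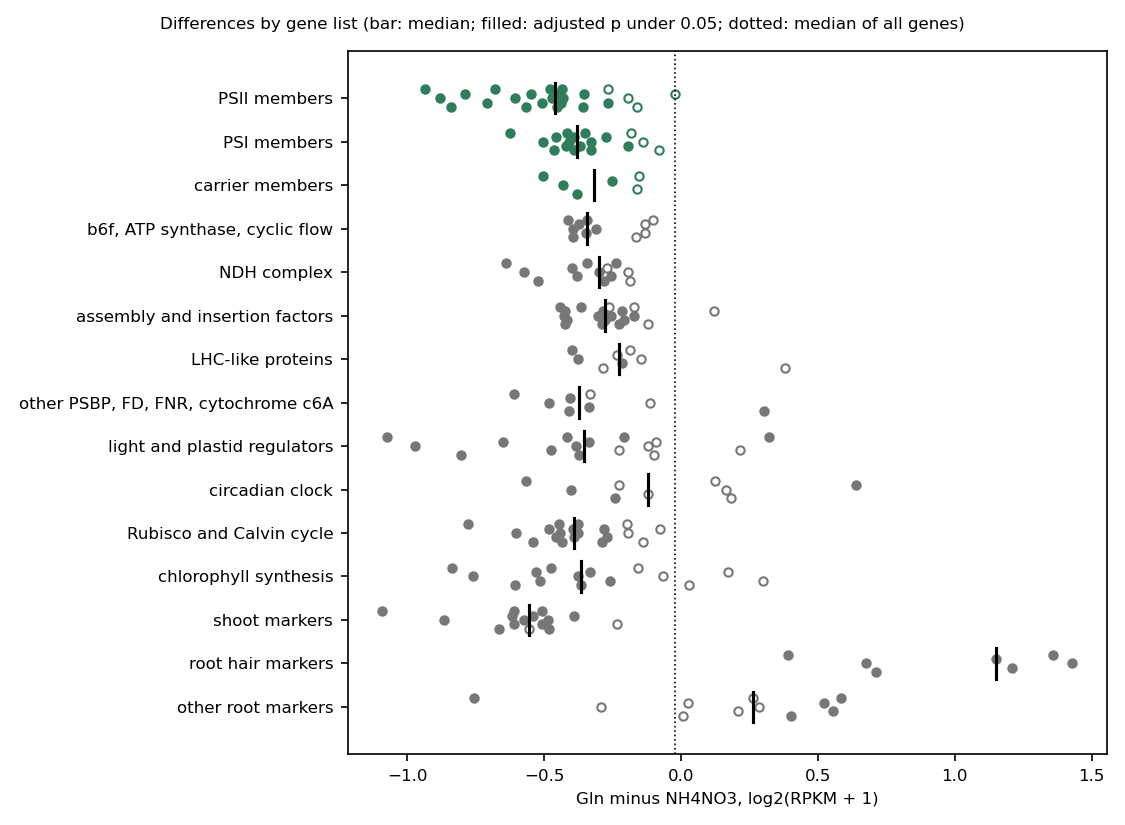
Difference in log2(RPKM + 1), Gln minus NH4NO3, of every tested gene in each list, with PSII, PSI and carrier members in green, other lists in grey, filled points at an adjusted p under 0.05, a bar at the list's median and a dotted line at the median of all genes. PSII, PSI and carrier medians of -0.46, -0.38 and -0.32 lie among those of the other chloroplast lists, shoot markers lie at -0.56 and root hair markers at 1.15.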

How the data were processed

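Total RNA of whole seedlings was made into unstranded TruSeq libraries, per the labels' protocols. The authors deposited 1 RPKM value per gene and library, scaled by TMM, the trimmed mean of M values, as the file headers and file name have it. The deposited table also holds a multi-read ratio per gene, a fraction from 0 to 1 that the file headers do not define, and a gene length. TAIR10 and SAMtools are named per the submitters' processing notes, and the sources used here do not give the aligner, the read counter or the annotation. Low values were whole read numbers plus an offset, times a step per library, a rule met to within 0.05 reads by 93.5% to 95.4% of the values that stand for 20 reads or fewer. Depth was taken from these steps.

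The 19284 genes whose mean over the libraries reached 1 RPKM were fitted with limma 3.58.1 in R 4.3.3 on log2(RPKM + 1) with a mean-variance trend, 2-sided, with Benjamini-Hochberg adjustment over all of them and a threshold of 0.05. All 48 members passed the filter. Differences on this scale understate the change of low genes. Ratios of gene pairs were tested by exact permutation in Python 3.11.15 with SciPy 1.17.1. The fit was also run on simulated reads, with the same dispersion for all genes and genes drawn independently. The members vary together between libraries, so that run does not show how well the fit suits them. The variance between 2 replicates of a group was 7.17 to 15.8 times the variance of counting error, and all were kept as separate samples. That excess does not show whether the libraries came from separate plates or pools. Members and the 12 further lists of 159 genes were chosen with earlier results of these data known. A list of chloroplast-encoded genes was not used here, since the reference does not pair their identifiers with names. From each list the text names up to 3 called genes with the greatest difference in each direction, plus GLK1, GLK2, HY5, GUN1, SIG5, CCA1, LHY, TOC1, STN7, PETC, ELIP1, ELIP2, RBCS1A and RCA whatever their result. Positions and upstream sequences are from RefSeq TAIR10.1, in which all 48 members were found by locus. Alternatives changed the pseudocount, the filter, the normalization, library weights, a replicate term and the libraries used.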

Additional observations from a re-analysis of the deposited data

How the results depend on the processing

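The members' medians kept their sign under every alternative tried, whereas the counts of calls changed. The share of all genes called under each alternative is not given, so these counts have no background beside them. With no filter on low values, 6 members were called lower, all 6 also called with the filter: 0 of PSI (0 antenna, 0 other), 5 of PSII (2 major antenna, 1 minor antenna, 0 oxygen-evolving, 2 small subunits) and 1 carrier. In the lists that setting left 4 NDH genes, 3 other PSBP, ferredoxin and FNR genes, 1 clock gene, 4 Rubisco and Calvin cycle genes and 0 other root markers called lower, and 0 clock genes and 1 other root marker called higher. The filter does not enter a gene's estimated difference, only its error, which limma shares over genes, and its adjustment over all genes tested. More genes were tested in that fit, and why fewer were called was not tested. A mean of at least 5 RPKM left 3 root hair markers called higher, since fewer were tested.

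Quantile normalization gave medians of -0.24 for all members, -0.18 for PSI, -0.31 for PSII, -0.15 for the PSI antenna, -0.29 for the major PSII antenna, -0.22 for other PSI subunits and -0.13 for small PSII subunits. It called 1 member, LHCB1.4, higher (0.40), and 2 PSI antenna, 3 oxygen-evolving and 2 small PSII genes lower. It also turned LHCA1 (0.033), LHCB4.1 (0.16), PSAL (0.078), PSAO (0.0099), PSBO1 (0.091) and PSBR (0.071). LHCB1.3 is the top-ranked gene in every library, so this method sets its difference to 0 by construction, and LHCB5 also came to 0. PSII antenna minus other PSII subunits became -0.10, and the same within PSI became 0.072. The log2 ratio shifts of PSAD1 to PSAD2 (0.11), PSBO1 to PSBO2 (0.45), PETE1 to PETE2 (-0.18) and LHCA2 to LHCA6 (0.12) also turned. In the lists it called 6 light-harvesting-like genes lower, 0 other ferredoxin genes higher and 1 Rubisco and Calvin cycle gene higher. Array weights called 5 light-harvesting-like genes lower and 1 higher. The cause of these changes was not tested beyond LHCB1.3. With the LHCB1 and LHCB2 copies summed, the PSI minus PSII shift was 0.11 and 34 of 42 features were called lower. No member exceeded a multi-read ratio of 0.1, so that alternative changed nothing.

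Leaving out a library in turn gave 22 to 38 members called lower, with 5 to 14 of PSI, 2 to 5 of the PSI antenna, 3 to 9 of other PSI subunits, 2 to 5 oxygen-evolving genes and 2 to 4 carriers. LHCA6 ranged from -0.14 to 0.0083, LHCB1.4 from -0.17 to 0.13 and the FD1 to FD2 shift from -0.16 to 0.018. In the lists, 8 to 13 assembly factors and 2 to 5 light-harvesting-like genes were called lower and 0 to 1 light-harvesting-like genes higher. The ranges were 0 to 2 regulators higher, 0 to 1 chlorophyll genes higher, and 1 to 2 other root markers lower and 2 to 5 higher. The labels do not say whether equal replicate numbers pair the samples. Same-numbered libraries had correlations of deviations of -0.07, -0.10 and -0.01, so no shared signal was seen. With the replicate block, 34 members were called lower, among them 3 of the PSI antenna. Of the 48 members, 6 were called in all 13 alternatives of single genes and 18, these 6 included, in all but the fit with no filter. With 3 libraries a group, differences as small as those of LHCA6 or PETE1 were not detectable.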

Other observations

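Of the 8 pairs of related genes whose log2 ratios lay apart between the groups, 4 are given here. The log2 ratio of PSBQ1 to PSBQ2 was -0.57, -0.60 and -0.56 in Gln and -0.69, -0.71 and -0.79 in NH4NO3, a shift of 0.16. The ratio of LHCB2.1 to LHCB2.2 was 0.01, 0.01 and -0.03 in Gln and 0.17, 0.17 and 0.08 in NH4NO3, a shift of -0.15, and these 2 genes share part of their sequence. The ratio of PSBO1 to PSBO2 shifted by -0.09 (0.45 under quantile normalization) and that of FNR1 to FNR2 by -0.09. Each has the exact 2-sided permutation p of 0.10 that is the smallest 3 against 3 libraries allow (0.138 adjusted over the 11 pairs). The gene with the lower level gained share in the pairs LHCA2 and LHCA6, PSAE1 and PSAE2, PSBO1 and PSBO2, and PSBQ1 and PSBQ2, and the gene with the higher level did in the pairs LHCB4.1 and LHCB4.2, and FNR1 and FNR2. Under quantile normalization the shifts of LHCA2 to LHCA6 (0.12) and of PSBO1 to PSBO2 turned.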
